A study of Mus musculus with 4 samples.

Results

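The immediate early response was followed through 10 genes: the AP-1 subunit genes Fos, Fosb, Fosl1, Fosl2, Jun and Junb, the stress-induced ATF family gene Atf3, the zinc finger factor gene Egr1, the nuclear receptor gene Nr4a1 and Ier3. They were chosen by name, with earlier results of these data known, as 10 of the 19938 genes that had a probe set with exactly 1 gene symbol on the array. Each of the 10 was represented by 1 probe set. The tissue was small intestine from C57BL/6 mice, measured on 4 single-colour Affymetrix arrays, of which 2 came from CFLARs Tg mice and 2 from wild-type mice. CFLARs Tg mice carry a transgene for the short form of Cflar (cFLIP), a protein that restrains caspase-8, and no other allele or treatment was given for either group. CFLARs Tg replicate 1 is titled XCFX and replicate 2 XCFY, and wild-type replicate 1 is titled XX and replicate 2 XY. These titles read as the sex chromosomes of the mice, with the CF mark beside an X. The promoter and copy number of the transgene, the age of the mice, the stretch of intestine and the number of animals behind an array are not stated in the labels, although the series title speaks of preterm mice and ileitis.

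Immediate early genes are switched on within minutes of a growth factor, cytokine, stress or wound signal, without new protein synthesis, chiefly through MAP kinases that act on the serum response factor and CREB/ATF proteins already bound to DNA. FOS and JUN proteins pair through leucine zippers to form AP-1, which binds the TGANTCA motif, and FOS proteins need a JUN partner to do so. EGR1 binds GC-rich sites, NR4A1 (NUR77) acts without a known natural ligand, and ATF3 joins JUN proteins or itself. Ier3 encodes no DNA-binding factor but a short-lived protein that modulates survival and ERK signalling, so the 10 genes form an immediate early set of which 9 encode transcription factors. In the intestine these genes are known for their response to epithelial injury, mitogens and inflammation.

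Values are the authors' log2 expression values, so a difference of 1 is a doubling of the reading. Background signal was gauged from Y-linked genes in the XCFX and XX arrays and from Xist in the XCFY and XY arrays, 8 readings that lay between 5.13 and 6.78. None of the 10 genes had a reading in that range on any of the 4 arrays (0 of 10). Cflar read 9.49 and 9.30 in CFLARs Tg arrays and 9.34 and 9.28 in wild-type arrays (limma adjusted p = 0.498), and where its probe sets lie relative to the transgene is not known here, so it does not check the genotype labels. The deposited arrays shared nearly 1 distribution, with medians of 8.31 to 8.33. A genotype difference in bulk tissue cannot tell more cells of a type from more RNA per cell.

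In CFLARs Tg intestine, 5 of the 9 members with levels high enough to be fitted rose and 0 fell (limma over all genes, adjusted p under 0.05). These were Atf3, Egr1, Nr4a1, Ier3 and Junb, with 3.17-fold, 2.45-fold, 1.96-fold, 1.93-fold and 1.499-fold higher readings. Over all 13956 fitted genes, 8.44% rose and 10.9% fell by the same rule, 19.3% in all. The classical AP-1 genes Fos and Jun were not called, and neither were Fosb and Fosl2, although with sex type as a block Fos was called higher (limma adjusted p = 0.0260). The block leaves fewer residual degrees of freedom. With it 1411 of all fitted genes were called higher and 1701 lower, against 1178 and 1517 without it. Without the block, an unadjusted limma p under 0.05 was found for 8 of the 9 members, against 39.1% of all fitted genes. Fosl1 fell below the filter, a mean log2 value of 7.48 over the 4 arrays, and was not fitted. The median difference over the 9 fitted members was 0.58 and over all 10 it was 0.57, beside -0.01 over all fitted genes. Both CFLARs Tg arrays lay above both wild-type arrays in 9 of the 10 members, Jun being the exception, where both lay below; among fitted genes 32.0% showed the first pattern and 37.6% the second. With 2 arrays against 2, an exact two-sided permutation test of a single gene cannot give a p below 0.333, so the calls rest on the fit that shares information on the spread between all genes.

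**Figure D1:**
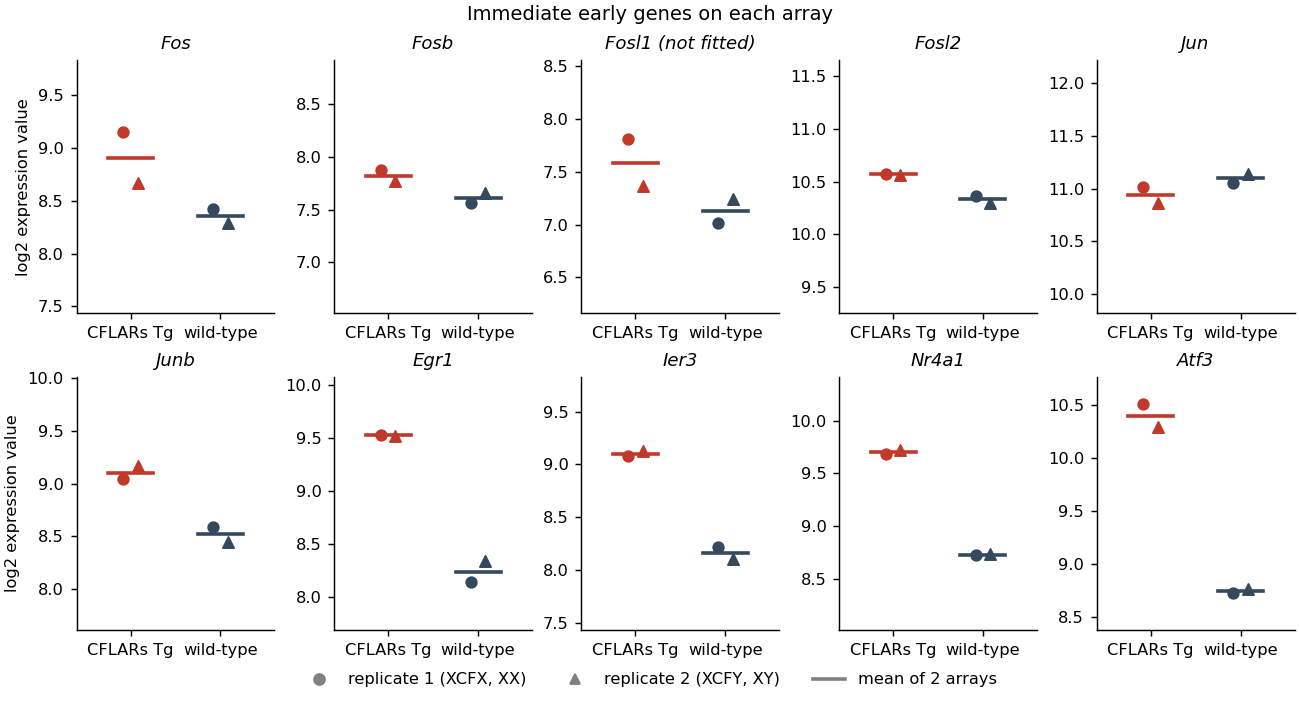
Deposited log2 expression value (vertical axis, each panel spanning the same range of log2 units) of each of the 10 genes in the 2 CFLARs Tg arrays (red) and the 2 wild-type arrays (dark blue). Circles are replicate 1, triangles replicate 2 and bars the mean of 2 arrays. Atf3, Egr1, Nr4a1 and Ier3 show the widest gaps between genotypes, and the CFLARs Tg arrays of Fos and Fosl1 stand apart from each other.

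Atf3, which is induced by many stresses including that of the endoplasmic reticulum and which often acts as a repressor, differed most. It read 10.51 and 10.30 in CFLARs Tg arrays, against 8.72 and 8.76 in wild-type arrays. The groups did not overlap, and the lower CFLARs Tg array stood 1.54 above the higher wild-type array, several times the distance between the arrays of either genotype. The difference was 1.66 (SE 0.09, 95% confidence interval 1.43 to 1.90, limma adjusted p = 0.00520), which ranked 57 among the 13956 fitted genes from the largest rise down.

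Egr1, whose product is an early link from ERK signalling and serum response factor to later gene expression, came next. It read 9.54 and 9.52 in CFLARs Tg arrays, against 8.14 and 8.34 in wild-type arrays. Both transgenic readings were nearly equal and the wild-type readings were the more spread of the 2 groups. The difference was 1.29 (SE 0.09, 95% confidence interval 1.07 to 1.52, limma adjusted p = 0.00899), at rank 96.

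Nr4a1, an orphan nuclear receptor gene induced by mitogens, calcium and antigen receptor signals, read 9.68 and 9.72 in CFLARs Tg arrays, against 8.72 and 8.73 in wild-type arrays. Its replicates were the tightest pair in wild-type among the 10 genes (SD 0.0045), and the genotypes were separated by 0.95 at their nearest arrays. The difference was 0.97 (SE 0.06, 95% confidence interval 0.83 to 1.12, limma adjusted p = 0.00578), at rank 173. Ier3, which is a target of NF-kB as well as of growth factor signals, read 9.08 and 9.13 in CFLARs Tg arrays, against 8.21 and 8.10 in wild-type arrays. Here too the arrays of each genotype lay close together. The difference was 0.95 (SE 0.07, 95% confidence interval 0.77 to 1.12, limma adjusted p = 0.0103), at rank 180.

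The 2 JUN family genes among the members went opposite ways in sign, and only Junb passed the test. A further JUN gene, Jund, was counted among the other AP-1 subunits and named after its value was seen. It differed by 0.20 and was not called (limma adjusted p = 0.175). Junb, whose product pairs with FOS proteins and is in many settings a weaker activator than JUN, read 9.04 and 9.17 in CFLARs Tg arrays, against 8.59 and 8.45 in wild-type arrays. Every transgenic reading was above every wild-type one. The difference was 0.58 (SE 0.08, 95% confidence interval 0.36 to 0.80, limma adjusted p = 0.0231), at rank 518. Jun, the main partner in AP-1, read 11.02 and 10.86 in CFLARs Tg arrays, against 11.06 and 11.13 in wild-type arrays. The nearest arrays of the 2 genotypes were 0.04 apart, less than the distance between replicates. The difference of -0.16 was not called (SE 0.08, 95% confidence interval -0.36 to 0.05, limma adjusted p = 0.212), and the interval leaves room for a small change in either direction.

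The 4 FOS family genes lay higher in CFLARs Tg in each case, by less than the 5 called genes, and 0 of the 3 fitted ones passed (limma; unadjusted p under 0.05 for all 3 of them, Fos, Fosb and Fosl2). Fos, the prototype of the family, read 9.15 and 8.67 in CFLARs Tg arrays, against 8.42 and 8.29 in wild-type arrays. The XCFX array stood well above the others, and the distance between the transgenic arrays was close to the genotype difference of 0.55 (SE 0.17, 95% confidence interval 0.09 to 1.01, limma adjusted p = 0.0891, or 0.0260 with sex type as a block). Fosl2 (FRA-2), which has slower and longer-lasting induction than Fos, read 10.57 in both CFLARs Tg arrays, against 10.37 and 10.30 in wild-type arrays. Its replicates were tight but its difference was small, at 0.24 (SE 0.06, limma adjusted p = 0.0545). Fosb, which also has a shorter splice form known from neurons, read 7.87 and 7.77 in CFLARs Tg arrays, against 7.57 and 7.65 in wild-type arrays, a difference of 0.21 (SE 0.07, limma unadjusted p = 0.0338). Fosl1 (FRA-1), a gene itself driven by AP-1 in many epithelial cells, read 7.81 and 7.36 in CFLARs Tg arrays, against 7.01 and 7.25 in wild-type arrays. Its genotype difference of 0.46 was close to the distance of 0.45 between its own transgenic arrays, and in a fit without a filter it was not called (limma adjusted p = 0.150).

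**Figure D2:**
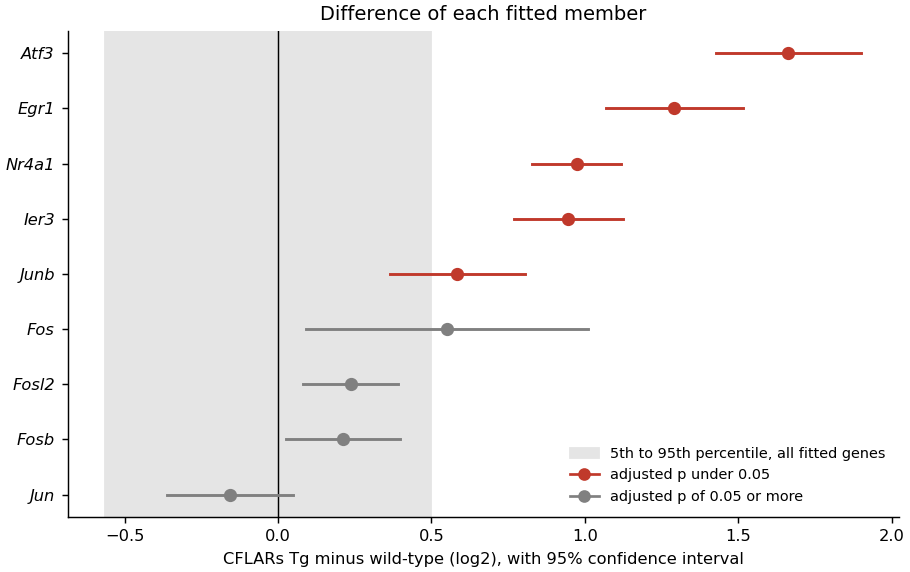
CFLARs Tg minus wild-type difference (log2, horizontal axis) of the 9 fitted members with the 95% confidence interval from limma, in red where the adjusted p was under 0.05. The grey band runs from -0.56 to 0.50, the 5th to the 95th percentile of all 13956 fitted genes, and 6 of the 9 members, the called 5 and Fos, lie to its right.

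Set against the wild-type array of its own title type, each CFLARs Tg array gave a difference of the same sign as the other in all 10 genes, as it must where the genotypes do not overlap. These values have no replicate and no test. For the 5 called genes the differences in the XX-type and the XY-type pair were 1.79 and 1.54 for Atf3, 1.40 and 1.18 for Egr1, 0.96 and 0.99 for Nr4a1, 0.86 and 1.03 for Ier3, and 0.45 and 0.72 for Junb. The pairs thus gave like sizes for the first 4 genes. The FOS genes were less even: Fosl1 differed by 0.80 in the XX-type and by 0.12 in the XY-type pair, Fos by 0.73 and 0.37, and Fosb by 0.31 and 0.11. Fosl2, at 0.20 and 0.27, was again even. Jun differed by -0.04 in the XX-type and by -0.27 in the XY-type pair. Over the 10 genes the pairs had medians of 0.77 (XX-type) and 0.55 (XY-type), beside -0.02 and -0.01 over all fitted genes.

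**Figure D3:**
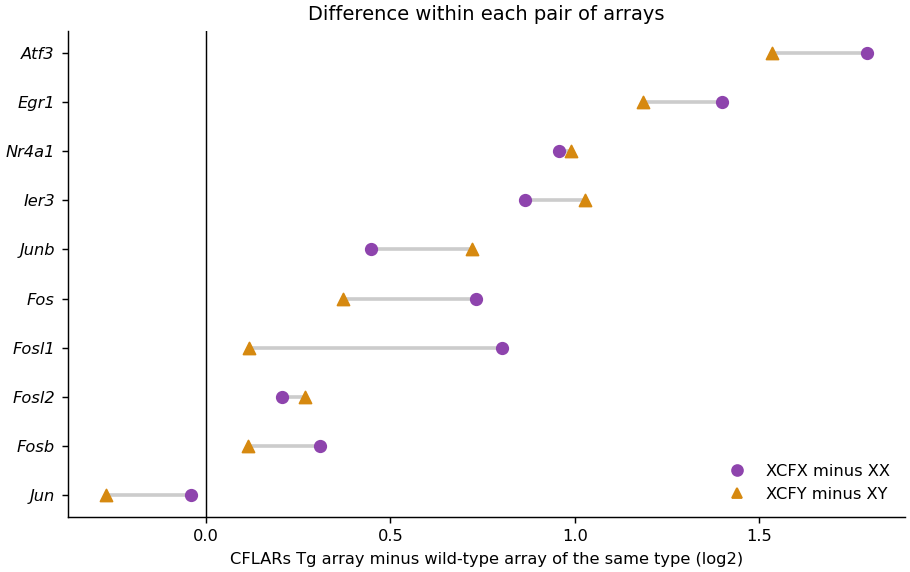
CFLARs Tg array minus wild-type array of the same title type (log2, horizontal axis) for each of the 10 genes. Purple circles are the XCFX minus XX pair and orange triangles the XCFY minus XY pair, joined by a grey line. All 10 genes have both marks on the same side of 0, and the longest line is that of Fosl1, with 0.80 and 0.12.

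Whether a member was called depended on which arrays were kept, and calls over all fitted genes moved in the same way. Far fewer of all fitted genes passed with either wild-type array removed. A low count there, among the members or in the later lists, is thus not particular to the genes counted. With wild-type replicate 1 removed, so that replicate spread could be estimated in CFLARs Tg only, 0 of the 9 members passed (limma; unadjusted p under 0.05 for 5 of them, the 5 called with all arrays), with adjusted p-values of 0.0573 for Atf3, 0.0577 for Egr1, 0.0847 for Ier3, 0.0875 for Nr4a1 and 0.163 for Junb. With wild-type replicate 2 removed, only Egr1 of the 9 passed, and Atf3 had an adjusted p of 0.0512. Over all the settings tried the differences of the 5 called genes lay between 1.56 and 1.77 for Atf3, 1.19 and 1.39 for Egr1, 0.96 and 0.99 for Nr4a1, 0.89 and 1.002 for Ier3, and 0.51 and 0.66 for Junb. Those of uncalled genes moved more in proportion, between 0.31 and 0.80 for Fos, between 0.16 and 0.26 for Fosb and between -0.23 and -0.08 for Jun. More members passed with a CFLARs Tg array removed, and so did more of all fitted genes. Jun differed by -0.23 without CFLARs Tg replicate 1 and by -0.08 without replicate 2, and Fos by 0.31 and 0.80. When limma's treat asked for a difference beyond 0.5, Atf3 and Egr1 passed, and among all fitted genes 0.380% were higher and 0.0717% lower by that rule.

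**Figure D4:**
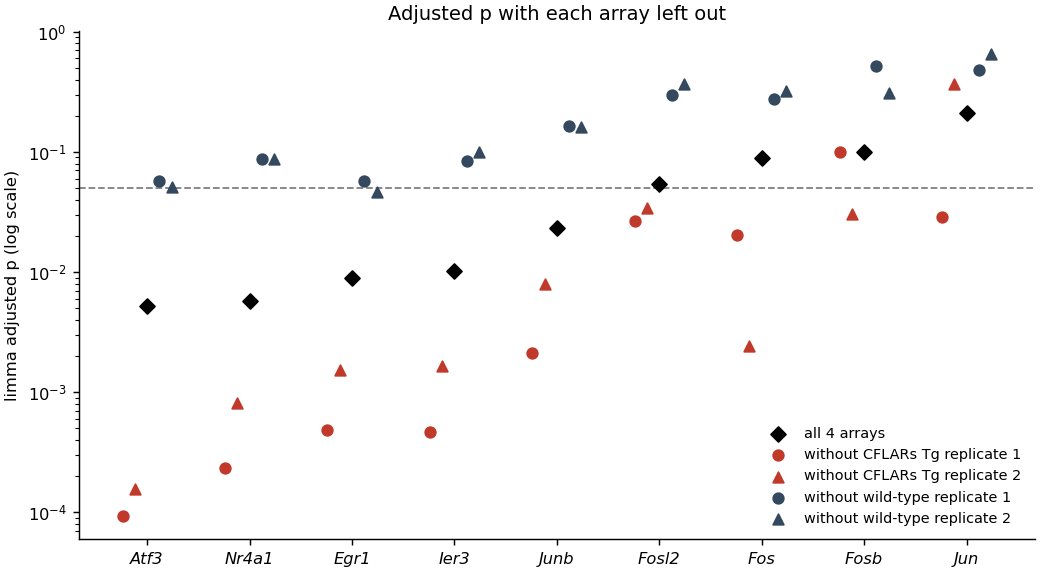
limma adjusted p (log scale, vertical axis) of the 9 fitted members with all 4 arrays (black diamonds) and with 1 array left out: a CFLARs Tg array (red) or a wild-type array (dark blue), circles for replicate 1 and triangles for replicate 2. The dashed line is 0.05. All blue marks lie above it except that of Egr1 without wild-type replicate 2.

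What the members' promoters hold was read from RefSeq windows of GRCm38.p6, which run from 250 bases before to 50 bases after a gene's start. Such windows were matched for 8 of the 10 genes, and Egr1 and Fosl1 are named only. The windows of the 4 other called genes and of Jun are shown to set genes that rose beside one that was not called and lay lower. Capitals mark every match to 3 motifs on either strand: the half-site TGACG of the cAMP response element, the EGR motif GCGNGGGCG, and the kappa B site bound by NF-kB. Matches that touch or overlap run together.
Atf3 (chr1:191183284-191183583, minus strand): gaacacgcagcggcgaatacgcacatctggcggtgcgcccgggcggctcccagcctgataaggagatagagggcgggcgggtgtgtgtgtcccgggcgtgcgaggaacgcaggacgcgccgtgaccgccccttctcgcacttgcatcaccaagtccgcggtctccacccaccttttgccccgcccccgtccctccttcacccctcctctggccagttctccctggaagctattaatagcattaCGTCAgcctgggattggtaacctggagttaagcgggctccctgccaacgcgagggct
Nr4a1 (chr15:101266596-101266895, plus strand): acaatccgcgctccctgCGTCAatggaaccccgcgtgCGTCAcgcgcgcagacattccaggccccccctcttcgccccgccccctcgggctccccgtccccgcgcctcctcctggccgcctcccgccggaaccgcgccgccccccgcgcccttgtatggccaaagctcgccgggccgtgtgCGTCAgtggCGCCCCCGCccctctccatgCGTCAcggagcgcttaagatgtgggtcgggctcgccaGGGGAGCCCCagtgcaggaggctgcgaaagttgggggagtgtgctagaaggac
Ier3 (chr17:35821463-35821762, plus strand): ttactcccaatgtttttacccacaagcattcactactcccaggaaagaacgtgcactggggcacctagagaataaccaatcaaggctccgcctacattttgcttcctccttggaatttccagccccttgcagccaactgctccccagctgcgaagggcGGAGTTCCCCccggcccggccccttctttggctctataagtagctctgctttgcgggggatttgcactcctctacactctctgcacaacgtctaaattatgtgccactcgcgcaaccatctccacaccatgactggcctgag
Junb (chr8:84978699-84978998, minus strand): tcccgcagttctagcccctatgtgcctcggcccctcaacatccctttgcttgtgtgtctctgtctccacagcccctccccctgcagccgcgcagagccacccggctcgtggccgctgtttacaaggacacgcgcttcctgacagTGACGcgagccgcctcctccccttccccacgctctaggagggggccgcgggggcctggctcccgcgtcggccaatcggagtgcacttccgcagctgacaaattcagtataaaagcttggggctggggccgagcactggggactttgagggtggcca
Jun (chr4:95052173-95052472, minus strand): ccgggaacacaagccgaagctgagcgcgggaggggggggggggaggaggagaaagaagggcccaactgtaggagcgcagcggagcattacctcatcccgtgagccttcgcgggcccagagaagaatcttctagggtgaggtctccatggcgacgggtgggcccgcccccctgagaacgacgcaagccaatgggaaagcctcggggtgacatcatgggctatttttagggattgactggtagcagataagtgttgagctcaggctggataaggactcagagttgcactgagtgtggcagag

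In these 5 windows the half-site occurs 4 times in Nr4a1 and 1 time each in Atf3 and Junb. Nr4a1 also holds 1 EGR motif and 1 kappa B site, Ier3 holds 1 kappa B site, and Jun holds 0 of the 3 motifs. Of the 8 windows, 5 hold the half-site (Atf3, Fosb, Junb, Fos and Nr4a1), against 20.8% of all 32851 RefSeq windows of this length and 28.9% of those of fitted genes. The EGR motif is in 3 of the 8 (Fosl2, Fosb and Nr4a1), against 5.55% of all windows and 10.2% of those of fitted genes. The kappa B site is in 5 of the 8 (Fosl2, Fosb, Fos, Nr4a1 and Ier3), against 4.51% and 5.37%. The complete cAMP response element TGACGTCA, which contains the half-site on each strand, the AP-1 motif TGANTCA and the CArG box of serum response factor each match 0 of the 8, against 1.79%, 7.81% and 1.63% of all windows. Fos and Fosb, which were not called, hold the half-site and the kappa B site as Nr4a1 does. The windows are GC-rich, from 54.0% in Ier3 to 72.3% in Nr4a1. A match describes letters only, and the lack of one says only that those letters are not in this window.

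Genes around the members in the same pathway were then counted. The counts of this and the later lists stand beside 8.44% higher and 10.9% lower among all fitted genes. Among the inhibitors that MAP kinase signalling induces against itself, which are the dual-specificity phosphatases and the Sprouty and Spred proteins, 10 of 15 fitted genes rose and 0 fell, with a median difference of 0.36. Dusp14 differed by 1.03 (SE 0.06, limma adjusted p = 0.00541), with readings of 11.12 and 11.07 in CFLARs Tg arrays and 10.08 and 10.05 in wild-type arrays. Dusp1, an immediate early phosphatase of p38 and JNK, rose by 0.71, Dusp4 by 0.67 and the ERK phosphatase gene Dusp6 by 0.64. By contrast, of 13 fitted genes for MAP kinases, their upstream kinases, serum response factor and its cofactors, 0 rose and 1 fell (limma; unadjusted p under 0.05 for 2), with a median of 0.03. That one was Map2k6, a p38 kinase kinase gene, which fell by 0.38 (limma adjusted p = 0.0303). Serum response factor (Srf) differed by 0.21 (adjusted p = 0.0671), Map2k3 by 0.21 and Mapk8, the gene of JNK1, by 0.13, none of them called. With either wild-type array removed, 0 genes of both lists passed (limma), although 9 and 8 of the 15 inhibitors still had an unadjusted p under 0.05.

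Paralogs and partners of the members were counted next, again beside 8.44% higher and 10.9% lower among all fitted genes. Of 11 fitted genes for other AP-1 subunits, 2 rose and 1 fell, with a median of 0.20. Batf2, a subunit induced by interferon, read 9.11 and 9.25 in CFLARs Tg arrays, against 7.60 and 7.82 in wild-type arrays (difference 1.47, SE 0.10, limma adjusted p = 0.00899). Batf3 rose by 0.29 (adjusted p = 0.0378, or 0.0508 with sex type as a block), Maf fell by 0.88 (adjusted p = 0.0423) and Jdp2 differed by 0.24 (adjusted p = 0.0642). Among 6 fitted EGR and NR4A paralogs and EGR corepressors 3 rose and 0 fell, with a median of 0.27. Nab1 and Nab2, corepressors that bind EGR proteins, rose by 0.52 and 0.37, and Egr2 rose by 0.45, while Egr3 differed by 0.18 (limma adjusted p = 0.0852). Egr2 read 7.28 and 7.26 in wild-type arrays, below the filter cut of 7.48, and was fitted only through its CFLARs Tg readings. In a fit without a filter Egr2 was called as well (limma adjusted p = 0.0211). So was Nr4a3, which fell below the filter and was named after its values were seen. It read 7.54 and 7.60 in CFLARs Tg arrays, against 6.95 and 6.93 in wild-type arrays. With wild-type replicate 1 removed, 0 genes of these 2 lists passed (limma; unadjusted p under 0.05 for 3 in each list), and with wild-type replicate 2 removed Batf2 alone did.

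Of 28 other immediate early genes that were fitted, 9 rose and 2 fell, with a median of 0.19. Plk3, a stress-responsive kinase gene, read 9.86 and 9.84 in CFLARs Tg arrays, against 8.55 and 8.46 in wild-type arrays (difference 1.35, SE 0.06, limma adjusted p = 0.00417). Rhob, a small GTPase gene, rose by 0.85 and Gadd45g by 0.78. Sgk1, a kinase gene induced by serum and by glucocorticoids, went the other way and fell by 0.84 (adjusted p = 0.0307), and the other gene that fell was Cited2, by 0.32, chosen after its value was seen. Plk3 alone of the 28 passed with wild-type replicate 1 removed, and 0 passed with wild-type replicate 2 removed (limma; unadjusted p under 0.05 for 10).

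Genes known as AP-1 targets in other settings had a median of 1.03, the largest of the 7 related lists, with 7 of 12 fitted genes higher and 0 lower. Plaur, the urokinase receptor gene, read 10.03 and 9.99 in CFLARs Tg arrays, against 7.60 and 7.79 in wild-type arrays (difference 2.31, SE 0.08, limma adjusted p = 0.00230). The matrix metalloproteinase genes Mmp10 and Mmp13 rose by 1.87 and 1.48. Hmox1, the heme oxygenase gene, read 12.10 and 10.34 in CFLARs Tg arrays, against 9.27 and 9.28 in wild-type arrays, and was not called (adjusted p = 0.0791, or 0.0279 with sex type as a block). Plaur and Mmp10 still passed with either wild-type array removed, and the other 5 called targets did not. These targets answer to further factors besides AP-1, so their levels do not measure AP-1 activity.

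**Figure D5:**
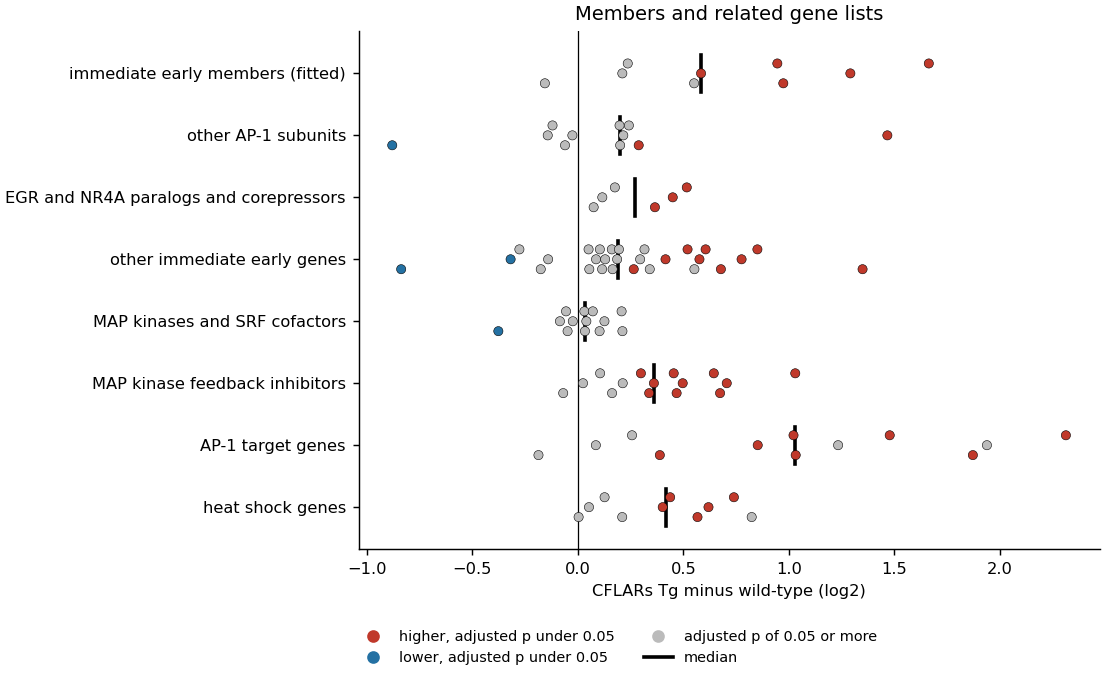
CFLARs Tg minus wild-type difference (log2, horizontal axis) of each fitted gene, for the members and 7 related lists (rows); red marks are higher and blue marks lower at a limma adjusted p under 0.05, grey marks are not called, and black bars are medians. The medians run from 0.03 for the MAP kinases and SRF cofactors to 1.03 for the AP-1 targets.

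Markers of other cell types and of heat shock were read beside these results. Of 10 neutrophil markers on the array 8 were fitted and 7 rose, with a median difference of 1.98. S100a8, S100a9, Ly6g, Cxcr2, Csf3r and Il1r2 read below the filter cut of 7.48 on both wild-type arrays. They were fitted only through their CFLARs Tg readings, as was the macrophage marker Cd14. Without a filter 6 of the 10 rose, with a median of 1.66, and with the lowest 50% of genes left out 0 were fitted. The summed signal of the 10 on the log2 scale was 11.77 and 12.86 in CFLARs Tg arrays, against 10.61 and 10.72 in wild-type arrays. The neutrophil markers were higher in the XCFY than in the XCFX array in 10 of 10 cases, with a median distance of 1.003. Among the 5 called members the XCFY array was higher than the XCFX array by 0.13 in Junb, 0.05 in Ier3 and 0.04 in Nr4a1, and differed from it by -0.01 in Egr1 and -0.22 in Atf3. All 5 uncalled members were lower in the XCFY array, and over the 10 members the median distance was -0.06. Macrophage markers summed to 12.31 and 12.85 in CFLARs Tg arrays, against 12.08 and 12.10 in wild-type arrays, and 0 of 7 fitted ones passed (limma; unadjusted p under 0.05 for 3), whereas with sex type as a block Cd14, Itgam and Lyz2 did, named after their values had been seen. The median difference of the 7 was 0.53 with CFLARs Tg replicate 1 removed and 0.15 with replicate 2 removed. Markers of intestinal epithelium were read above background on all 4 arrays, with 1 of 9 fitted ones higher in CFLARs Tg, a median difference of -0.08 and 0 called (limma; unadjusted p under 0.05 for 3). Alpi was called lower with sex type as a block and Sis without a filter. The median difference of the epithelial markers was -0.18 with CFLARs Tg replicate 1 removed and -0.06 with replicate 2 removed. The enterocyte markers Fabp1, Fabp2 and Alpi differed by -0.81, -0.72 and -0.52, and Vil1 by -0.08. Their list summed to 15.93 and 15.56 in CFLARs Tg arrays, against 16.08 and 16.08 in wild-type arrays. Sums were 10.21 and 10.17 in CFLARs Tg and 10.15 and 10.15 in wild-type arrays for lymphocytes, where the B cell marker Ms4a1 lay within background on all 4 arrays. They were 15.46 and 15.63 in CFLARs Tg and 15.40 and 15.41 in wild-type arrays for smooth muscle, 14.36 and 14.48 in CFLARs Tg and 14.44 and 14.48 in wild-type arrays for fibroblasts, and 12.84 and 12.99 in CFLARs Tg and 13.14 and 13.09 in wild-type arrays for endothelium, of which 3 of 6 fitted markers fell (Kdr, Tek and Emcn, chosen after their values were seen). Of these 0 were called with either wild-type array removed (limma; unadjusted p under 0.05 for 0 and 3). Emcn alone was called without a filter, and Tek lost its call with sex type as a block. Heat shock genes, which share with immediate early genes a sensitivity to stress and handling, rose in 5 of 10 fitted cases with 0 falls and a median of 0.42. These were Hsph1 (by 0.74), Hsp90aa1 (by 0.62), Hspd1 (by 0.57), Hspa1a (by 0.44) and Hspe1 (by 0.40), the last pair named only after its values had been seen, while Hspb1 differed by 0.82 (limma adjusted p = 0.0779, or called with sex type as a block). With either wild-type array removed, 0 neutrophil and 0 heat shock genes passed (limma; unadjusted p under 0.05 for 7 of the neutrophil genes in both cases and for 6 and 5 of the heat shock genes). The part of the neutrophil and heat shock signal in the members' differences was not tested.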

How the data were processed

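Per the labels' protocols, total RNA was extracted with Trizol, and biotinylated cRNA was prepared from it for Affymetrix arrays. The deposited table holds log2 values for 28856 probe sets, with 0 missing, and how the authors summarised, background-corrected and normalized them is not given in the sources used here. Arrays carry no read counts, and their number limits the precision.

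Probe sets were named from the platform annotation: 21789 had 1 symbol, 1621 several and 5446 none. Where a gene had several, the one with the highest mean was kept. The lowest 30% of genes by mean were left out, and 13956 were fitted with limma 3.58.1 in R 4.3.3 (lmFit, eBayes, no covariates, 2 residual and 2.64 prior degrees of freedom), with Benjamini-Hochberg adjustment over all of them at a threshold of 0.05. The procedure was tested on simulated data. Differences are CFLARs Tg minus wild-type. The labels do not state the animals behind each array. Within a genotype, Xist and Y-linked readings set replicate 1 apart from replicate 2, so the replicates are not repeats of 1 animal, and p-values reflect the spread among these samples, sex type included. The members, lists and tests were chosen with earlier results of these data known. All 10 members are named, and from each related list the 4 fitted genes with the largest difference in either direction, together with other genes chosen after their values were seen where a count of 5 or fewer needed a name. Marker sums are log2 of the summed linear signal of a list. Alternatives were 2 other normalizations, 2 other filters, the median of a gene's probe sets, the sex type of the titles as a block, a trended variance prior, a minimum difference, and leaving out each array.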

Additional observations from a re-analysis of the deposited data

How the results depend on the processing

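Quantile normalization, median centring, no filter, a filter on the lowest 50%, the median of probe sets, sex type as a block and a trended prior kept the members called higher within 4 to 6, and the fitted genes called higher or lower within 1.5 times of 1178 and 1517. Under the filter on the lowest 50%, Fosb and Ier3 were not fitted. Quantile normalization added Fosl2 (adjusted p = 0.04995) and the block added Fos (adjusted p = 0.0260). Against a minimum log2 difference of 0.5, 2 members were called, with 53 genes higher and 10 lower. Leaving out each array in turn gave 0 to 8 members higher and 0 to 1 lower, with 34 to 3112 genes higher and 3 to 3447 lower; the array left alone in its genotype is then assumed to vary like the others. Cflar changed sign with the median of its probe sets (-0.046), and lay between -0.0076 and 0.18 when an array was left out. Of 107 differences of members under other settings, 87 stayed on their side of the threshold, 12 lost and 8 gained a call, and 0 changed sign. Fosl1, which had no fit under the main filter, counts among the 87 because its difference did not move. Only the 2 other normalizations could have changed a sign. The other settings leave a member's difference as it was, or leave out an array where the genotypes do not overlap.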
